A study of Mus musculus with 4 samples.

Results

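The histone genes of the mouse were followed, with 5 genes that act in the making of histone mRNA. The cultures were bone marrow macrophages driven toward osteoclasts, with or without an inhibitor of the kinase p38α. Members were taken by name: every gene model whose GENCODE M21 symbol starts with Hist and a digit (the clustered histone genes), the variant genes H2afx, H2afy, H2afy2, H2afz, H2afv, H2afj, H1f0, H1fx, H3f3a and H3f3b, and the processing genes Slbp, Lsm10, Lsm11, Casp8ap2 and Npat. Of 85 such genes in the annotation, 82 were among the 23390 gene models of the count table. A minimum of 40 counts summed over the 4 libraries kept 56, made up of 41 clustered genes of 67, all 10 variants and all 5 processing genes. The 26 genes left out were all clustered. The lowest kept total was 41 counts, shared by 4 genes, and the highest total left out was 33.

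The cells were bone marrow macrophages of wild-type C57BL/6J mice, expanded for 3 days in medium conditioned by L929 fibroblasts at the equivalent of 20 ng/ml M-CSF. They were then driven toward osteoclasts, the multinucleated cells that resorb bone, with 40 ng/ml RANKL. The control group (2 libraries) received the solvent DMSO, and the treated group (2 libraries) received 10 µM BMS-582949, a small-molecule p38α inhibitor. RNA was collected at day 4. The sources differ on whether the compound was present for 3 or 4 days. The protocol text names the compound for all 4 samples, so the groups follow the treatment label. Whether a group's libraries stem from different animals or culture wells is not labelled, so the p-values reflect the spread among these libraries alone, and that spread may be technical.

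Histones are the proteins around which DNA is wound: H2A, H2B, H3 and H4 form the core of the nucleosome, and H1 binds the linker between nucleosomes. Most clustered histone genes are used during DNA replication, and their mRNAs typically end not in a poly(A) tail but in a conserved stem-loop. SLBP binds the stem-loop, and a particle containing the U7 small RNA cuts the transcript just after it. Some clustered genes can also give polyadenylated mRNA in cells that have left the cycle. Most variant genes lie outside the clusters and give polyadenylated mRNA throughout the cell cycle. The libraries were made with an mRNA kit, and how it selected mRNA is not given in the sources used here, so a count of a clustered gene cannot be divided into mRNA with and without a tail.

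Outside the members the stem-loop motif was rare in the table, but not every clustered gene held it. The motif of 16 bases was searched on the sense strand of the GENCODE M21 transcripts, with any base allowed at the fourth, the tenth and the thirteenth, and 45 of 22022 genes held it. Of these, 43 were members: H2afx and 42 of the 67 clustered genes. Of the 41 kept clustered genes, 12 did not hold it. The other genes were H2bfm and Trim17, whose model overlaps Hist3h2a. The forms below are shown because they come from genes whose levels carry the results. Each is written as DNA, 5′ to 3′, with the motif in capitals.
Hist2h2aa1: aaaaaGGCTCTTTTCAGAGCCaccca
Hist2h3c1: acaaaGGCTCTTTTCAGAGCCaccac
Hist3h2a: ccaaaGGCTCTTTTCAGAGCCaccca
Hist1h1c: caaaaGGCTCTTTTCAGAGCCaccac
Hist1h4i: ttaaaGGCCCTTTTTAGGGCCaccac
Hist1h2ao: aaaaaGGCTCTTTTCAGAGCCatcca
H2afx: acaaaGGCCCTTTTAAGGGCCaccac
Hist2h2aa1, Hist2h3c1, Hist3h2a, Hist1h1c and Hist1h2ao had the same motif letters, and Hist1h4i and H2afx had others. The models differ in how far they run past the motif: 35 bases for Hist2h2aa1 and 31 for Hist1h2ao, against 840 for Hist1h1c, 1162 for Hist2h3c1 and 1643 for Hist3h2a in the shortest model holding it. The models of Hist1h2bc and Hist2h2be did not hold these letters.

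Promoters were read from RefSeq (GRCm38.p6), as the 250 bases before each start, for 52 of the 56 kept genes: 38 clustered, 9 variant and 5 processing genes. Those of Hist1h3f, Hist1h2bc, Hist2h2be and H2afx were not matched. Both strands were searched for the box CCAAT, for the box TATAAA, for the octamer ATTTGCAT and for the E2F-type sequence TTTCGCGC. The first was in 30 of 38 clustered promoters (78.9%) against 34.5% of all 27025 promoters. TATAAA was in 16 (42.1%) against 13.0%, the octamer in 5 (13.2%) against 1.61%, and the E2F-type sequence in 4 (10.5%) against 0.255%. Divergent genes share windows: 8 of the 38 overlap another, which leaves 34 separate regions, of which 26 held CCAAT, 15 TATAAA, 4 the octamer and 3 the E2F-type sequence. Duplicated copies still count more than once among these. The box CCAAT was also in 5 of the 9 variant promoters (55.6%) and 4 of the 5 processing gene promoters (80%). A match is a description of letters and not a site in use. The promoters below belong to 3 clustered genes that were lower with the compound and to the most abundant variant, with matches on either strand in capitals. No matches overlap in these windows.
Hist1h1c, chr13:23738557-23738806, + strand: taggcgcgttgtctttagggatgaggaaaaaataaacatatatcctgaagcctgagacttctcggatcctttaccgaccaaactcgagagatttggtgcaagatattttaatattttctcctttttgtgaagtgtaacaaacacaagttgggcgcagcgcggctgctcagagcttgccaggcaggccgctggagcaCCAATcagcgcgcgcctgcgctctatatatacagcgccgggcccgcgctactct
Hist2h2aa1, chr3:96245247-96245496, + strand: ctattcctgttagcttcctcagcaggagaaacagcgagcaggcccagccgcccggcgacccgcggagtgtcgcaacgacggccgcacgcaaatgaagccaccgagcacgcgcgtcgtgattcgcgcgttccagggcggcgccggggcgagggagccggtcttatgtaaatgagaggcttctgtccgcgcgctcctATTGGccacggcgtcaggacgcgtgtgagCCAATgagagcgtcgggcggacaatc
Hist3h2a, chr11:58954435-58954684, + strand: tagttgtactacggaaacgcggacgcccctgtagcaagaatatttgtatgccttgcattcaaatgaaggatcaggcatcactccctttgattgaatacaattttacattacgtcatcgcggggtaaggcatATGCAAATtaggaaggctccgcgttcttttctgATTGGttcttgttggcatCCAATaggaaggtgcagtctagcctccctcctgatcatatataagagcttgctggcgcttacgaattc
H2afz, chr3:137864237-137864486, + strand: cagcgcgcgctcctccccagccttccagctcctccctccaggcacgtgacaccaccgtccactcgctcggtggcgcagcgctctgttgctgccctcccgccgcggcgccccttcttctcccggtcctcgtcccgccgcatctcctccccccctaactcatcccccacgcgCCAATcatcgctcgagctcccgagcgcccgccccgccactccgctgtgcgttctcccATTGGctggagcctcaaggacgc
Hist1h1c held CCAAT in the forward orientation only. Hist2h2aa1 and H2afz held it in both orientations, as did Hist3h2a, which also held the octamer. Among the 14 clustered genes called lower that had a promoter, 9 held CCAAT, 5 TATAAA, 3 the octamer and 0 the E2F-type sequence. Among the other 24 clustered promoters, 21 held CCAAT, 11 TATAAA, 2 the octamer and 4 the E2F-type sequence, with shared windows counted for each gene.

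The deposited values were raw counts, with library totals of 35331889 and 36178333 (DMSO) and 39255925 and 37455168 (BMS-582949). Levels are given as CPM, counts scaled to library size and adjusted by TMM, always in the order DMSO replicate 1, DMSO replicate 2, BMS-582949 replicate 1, BMS-582949 replicate 2. Changes are log2 fold changes of BMS-582949 against DMSO ± SE from edgeR's quasi-likelihood test over 13214 genes, and genes with a Benjamini-Hochberg adjusted p under 0.05 were called. The test called 30.5% of all genes higher and 29.7% lower, so a call by itself is common in this comparison. All 10 osteoclast markers (such as Ctsk and Acp5) were called lower, and their summed level went from 99130 and 103400 CPM to 12160 and 12310. In bulk RNA, fewer cells of a type and less RNA per cell cannot be told apart. The part of cell makeup in the histone results was not tested.

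The clustered histone genes as a whole were 4.43-fold lower with BMS-582949. Their 67 models summed to 985, 960, 217 and 222 CPM. The treated libraries sat far below both controls, and as a share of all counts without scaling the sums were 0.0867%, 0.0837%, 0.0250% and 0.0251%. Of the 38 clustered genes that passed the low-count filter, 16 were called lower and 2 higher (29.7% and 30.5% of all genes tested). Their median change was -1.02 on the log2 scale, beside 0.03 over all genes tested. In 27 of the 41 kept genes both treated libraries lay below both controls (38.7% of all genes tested), and in 6 both lay above (41.4%). A call with at least a 4-fold lower level was made for 10 clustered genes, against 4.25% of all genes tested.

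Almost all of the difference in summed level lay in 10 genes with a mean of at least 5 CPM, which held 96.8%, 96.5%, 89.4% and 90.2% of the clustered counts in the 4 libraries. All 10 were called lower, with a median log2 fold change of -2.70, and in each the groups did not overlap. The 5 CPM bound is on the mean of all 4 libraries, and 3 of the 10 (Hist2h3c1, Hist2h3c2 and Hist1h2bg) passed it only through the DMSO libraries, so these counts describe the 10 and support nothing further. The other 7 were over it in both groups. The 10 are a linker histone, core histones H2A, H2B, H3 and H4 of cluster 1 on chromosome 13 and cluster 2 on chromosome 3, and the H2A gene of cluster 3 on chromosome 11.

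Hist1h1c (ENSMUSG00000036181, GRCm38 chr13:23738808-23740367) encodes the linker histone H1.2 and was the most abundant clustered gene in counts. Its levels were 233, 231, 85.8 and 90.3 CPM. It fell by 1.40 ± 0.06 on the log2 scale (edgeR adjusted p = 1.8e-09), less than the abundant clustered genes of clusters 2 and 3. Hist1h2bc (ENSMUSG00000018102, chr13:23684199-23692908), a core H2B gene, had 195, 186, 42.7 and 46.3 CPM. Both treated libraries lay far below both controls, and the log2 fold change was -2.10 ± 0.07 (edgeR adjusted p = 1.7e-10).

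Cluster 2 had the lowest median log2 fold change of the clusters. Its 6 kept genes summed to 398, 391, 31.4 and 34.1 CPM, a 12.1-fold lower level, whereas the 34 kept genes of cluster 1 were 2.92-fold lower in sum. Of the 6, 5 were called lower, beside 29.7% of all genes tested. The 5 include the near-identical copies described below, whose reads may be shared, so they are not separate measurements. The median log2 fold change was -3.58 against -0.75 for the 31 tested genes of cluster 1. The difference between clusters was not tested. Hist2h2be (ENSMUSG00000068854, chr3:96221119-96223738), an H2B gene, had 117, 116, 10.3 and 11.6 CPM, and its log2 fold change was -3.42 ± 0.08 (edgeR adjusted p = 2.6e-11). All of the 50-base words of its model occur in no other gene model, so a 50-base read of it matches no other model exactly.

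The other abundant genes of cluster 2 are near-identical copies, and how the authors' counting shared out their reads is not given in the sources used here. Hist2h2aa1 (ENSMUSG00000064220, chr3:96245497-96246082) and Hist2h2aa2 encode the same kind of H2A, and none of their 50-base words were unique (0%). Even their RefSeq promoter windows shared an unbroken run of 169 bases. Hist2h2aa1 had 105, 103, 14.7 and 8.93 CPM, and Hist2h2aa2 had 104, 104, 2.54 and 9.03 CPM. In BMS-582949 replicate 1 the reads were divided unequally between the copies, and in replicate 2 of that group nearly equally. The sum did not vary in that way. Summed, the pair had 209, 207, 17.3 and 18.0 CPM, and the log2 fold change was -3.56 ± 0.07 (edgeR adjusted p = 1.4e-11). Hist2h2aa2 taken singly was at -3.52 without BMS-582949 replicate 1, -5.37 without replicate 2 of that group and -3.45 with a GC and length trend removed, which put Hist2h2aa1 at -2.42. The exons of Hist2h2aa1, Hist2h2aa2 and Hist2h3c1 lie whole within further GENCODE models (Gm20633, Gm20632, Gm20634 and others) that were not analysed here.

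The H3 copies were both far lower in the treated libraries. Hist2h3c1 (ENSMUSG00000093769, chr3:96246685-96248509) had 35.2, 33.4, 2.14 and 2.95 CPM, and Hist2h3c2 had 36.8, 34.6, 1.46 and 1.49 CPM. Their promoter windows shared a run of 231 bases, and 0% and 36.5% of their words were unique. Together they had 71.9, 68.0, 3.60 and 4.44 CPM, with a log2 fold change of -4.12 ± 0.12 (edgeR adjusted p = 8.6e-11). Taken singly, Hist2h3c1 was at -3.75 ± 0.16, and Hist2h3c2 had the lowest log2 fold change of all tested members, -4.59 ± 0.14.

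Hist3h2a (ENSMUSG00000078851, chr11:58954685-58956830), the H2A gene of the small cluster 3, had 97.5, 91.5, 18.2 and 20.9 CPM. Its log2 fold change was -2.27 ± 0.09 (edgeR adjusted p = 6.0e-10). Its exons overlap those of Trim17 over 33.0% of their length, and Trim17 held 114 counts in all libraries together against 7625 for Hist3h2a. Hist1h4i, an H4 gene, had 18.6, 15.9, 9.13 and 7.28 CPM, and was the nearest of the 10 to no change, at -1.07 ± 0.15 (edgeR adjusted p = 4.1e-05). Hist1h2bg, an H2B gene, was uneven in the treated group: 12.3, 10.8, 6.81 and 1.54 CPM. Of its 50-base words 44.99% occur also in Hist1h2bc. Its call (-1.46 ± 0.43, edgeR adjusted p = 0.011) was lost with DESeq2's Wald test (adjusted p = 0.197), under scaling by library size only (0.0574) and with a GC and length trend removed (0.099). Its log2 fold change was -2.91 without BMS-582949 replicate 1 and -0.79 without replicate 2 of that group.

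**Figure D1:**
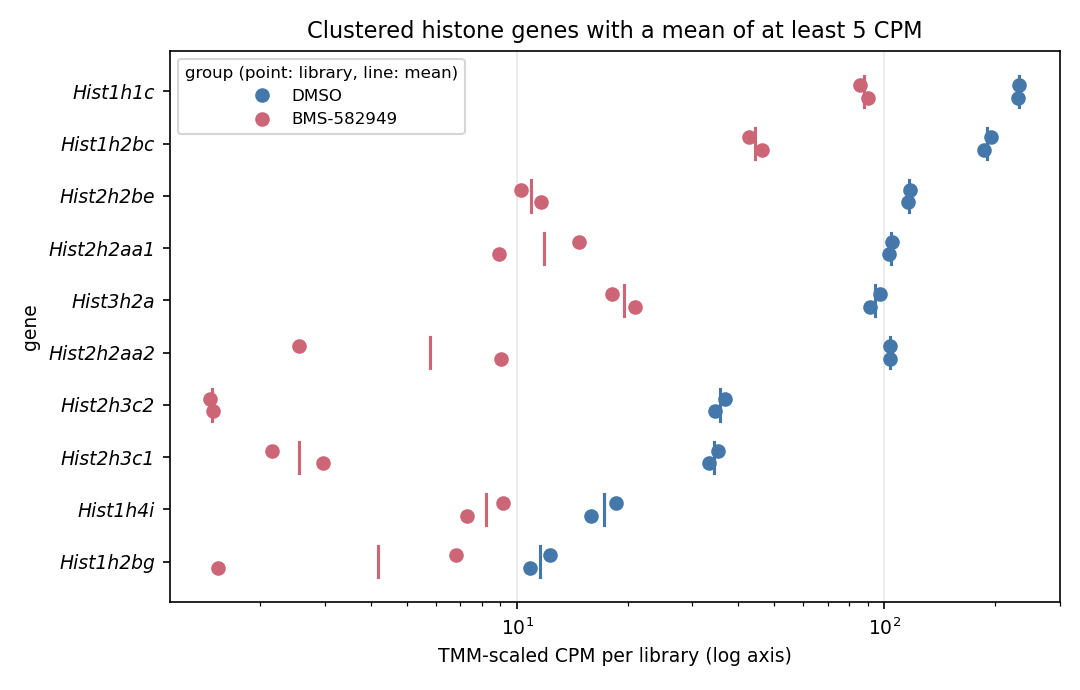
Level in CPM (log axis) of each clustered histone gene with a mean of at least 5 CPM, 1 point per library, DMSO and BMS-582949 in separate colours. All 10 genes have both treated points below both control points, and Hist2h2aa2 and Hist1h2bg have the widest gaps between the treated libraries.

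The other 31 kept clustered genes had means under 5 CPM and moved less as a group. Their sum was 28.4, 30.5, 19.8 and 19.5 CPM, 1.499-fold lower. The 28 that were tested had 6 calls lower and 2 higher, with a median log2 fold change of -0.71. Both shares are below those of all genes tested (29.7% lower and 30.5% higher). Hist1h3h, Hist1h2ai and Hist1h3b were kept but did not pass the low-count filter. Among the 38 tested clustered genes, Hist1h3g was under 10 counts in both DMSO libraries, and Hist1h4k and Hist1h4n were under it in both BMS-582949 libraries, so these were tested through the group where they were higher.

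By protein, the low-level genes did not all go the same way. Summed low-level H2B genes had 10.9, 13.5, 6.48 and 6.55 CPM, and H4 genes had 6.11, 6.37, 2.32 and 1.77 CPM, with the treated libraries below the controls in both. Summed H2A genes had 5.05, 4.72, 4.62 and 4.85 CPM, and H3 genes had 3.83, 2.54, 3.87 and 4.73 CPM. The groups overlapped for H2A, and for H3 both treated values were above the controls, by a margin smaller than the gap between the controls. Whether the proteins differ in their response was not tested.

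The low-level genes called lower were Hist1h4h, Hist1h2br, Hist1h2ac, Hist1h4k, Hist1h2bn and Hist1h2be. Hist1h4h, an H4 gene, had 2.67, 3.11, 0.155 and 0.355 CPM, a log2 fold change of -3.50 ± 0.46 (edgeR adjusted p = 2.8e-05). Hist1h2br, an H2B gene, had 1.83, 2.19, 0.0663 and 0.331 CPM and a log2 fold change of -3.34 ± 0.60 (edgeR adjusted p = 4.0e-04). Of its 50-base words 88.7% occur also in Hist1h2bq, which was at -0.75 and not called. Summed, an alternative added after seeing the data, this pair had 3.51, 4.47, 1.02 and 1.73 CPM and a log2 fold change of -1.54 ± 0.32 (edgeR adjusted p = 0.0011), so the size of the change of Hist1h2br alone is uncertain. Without BMS-582949 replicate 2, in which both were higher than in replicate 1, Hist1h4h was at -4.21 and Hist1h2br at -4.87, and without replicate 1 of that group Hist1h2br was at -2.59. Hist1h2ac, an H2A gene, had 1.51, 1.49, 0.420 and 0.284 CPM and changed by -2.08 ± 0.48. Hist1h2bn, an H2B gene with 13.6% unique words, changed by -1.47 ± 0.37, and its call was lost with a GC and length trend removed (adjusted p = 0.15). The calls of Hist1h4k (edgeR adjusted p = 0.037) and Hist1h2be (0.040) were lost with DESeq2, when any library was left out and with a block on the replicate number (0.0768 and 0.0578). Hist1h1d, a linker histone gene, had 2.54, 3.39, 2.52 and 1.63 CPM and was not called (-0.51 ± 0.31, edgeR adjusted p = 0.17), except without BMS-582949 replicate 1 (-0.86, adjusted p = 0.0461).

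The clustered genes called higher were Hist1h2ao and Hist1h3g, both scarce. Hist1h2ao, an H2A gene, had 0.322, 0.349, 1.35 and 1.58 CPM. The treated libraries were each above both controls, and the log2 fold change was 2.12 ± 0.47 (edgeR adjusted p = 0.0019). Only 6.5% of its 50-base words occur in no other model, so reads of other H2A genes may be counted with it. Hist1h3g, an H3 gene, had 0.0965, 0.0634, 0.531 and 0.520 CPM, which is 3 and 2 counts against 24 and 22. Its log2 fold change of 2.67 ± 0.81 (edgeR adjusted p = 0.012) was not called with DESeq2 (adjusted p = 0.0671) or when any library was left out (0.0593 to 0.107).

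Counted by protein over all levels, 1 of 2 tested H1 genes was called lower, 4 of 8 H2A genes, 6 of 11 H2B genes, 2 of 9 H3 genes and 3 of 8 H4 genes, beside 29.7% of all genes tested. With so few genes per protein, the H3 and H4 shares are near that background. The genes called lower include the copies Hist2h2aa1 and Hist2h2aa2 for H2A and Hist2h3c1 and Hist2h3c2 for H3, each counted singly. The H2A and H3 lists each held 1 gene called higher. Among the 16 kept genes whose models run more than 100 bases past the stem-loop, 8 were called lower and 0 higher (29.7% and 30.5% of all genes), with a median log2 fold change of -0.93. Among the 12 tested genes with shorter models, 3 were called lower and 1 higher, with a median of -0.88. The medians are close, although the sum of the longer models was 3.29-fold lower and that of the shorter ones, most of it the Hist2h2aa pair, 9.16-fold lower.

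Genes of a divergent H2A–H2B pair start back to back and share the sequence between them. The clustered genes of the count table formed 12 such pairs within 500 bases. In 11 of them the ratio of the larger to the smaller count ran from 1.37 to 635.5, and the last pair was at 0. Of the 11, 9 had ratios of at most 7.88. Hist1h2bc held 15834 counts and its partner Hist1h2ac, 250 bases away, 125, and their log2 fold changes were -2.10 and -2.08. Hist2h2be held 8261 counts, and Hist2h2ac, 238 bases away, 13. In the pair of Hist1h2bq and Hist1h2ao, 267 bases apart, Hist1h2ao was called higher at 2.12, and Hist1h2bq had a log2 fold change of -0.75 and was not called.

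**Figure D2:**
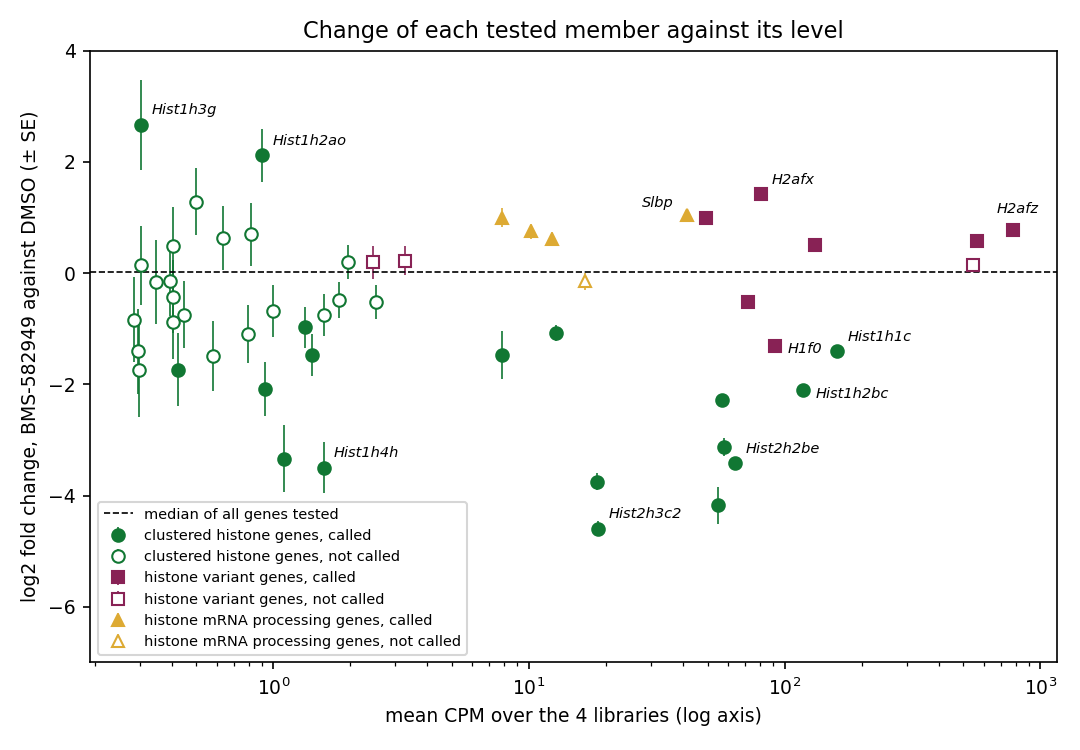
Log2 fold change of BMS-582949 against DMSO (± SE) of each tested member against its mean CPM over the 4 libraries (log axis), filled symbols for called genes, with the median of all tested genes as a dashed line. Clustered genes with a mean of at least 5 CPM all lie below the line, while the scarcer ones spread from -3.50 to 2.67 with wide errors.

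The 10 variant genes moved the other way in sum, from 2002 and 1904 CPM to 2601 and 2796 CPM, 1.38-fold higher. By edgeR, 5 were called higher, 2 lower and 3 were not called, against 30.5% and 29.7% of all genes. The median log2 fold change was 0.36. With library size only, which shifts the median of all tested genes from 0.03 to 0.41 on the log2 scale, H2afj lost its call (-0.14, adjusted p = 0.0823) and H3f3a gained one (0.53).

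Variants of H2A were the most varied family. H2afz (ENSMUSG00000037894, chr3:137864487-137866922) encodes H2A.Z, which marks promoters and enhancers, and had the highest level per length of all members. It had 598, 553, 937 and 1041 CPM, with no overlap between the groups, and its log2 fold change was 0.78 ± 0.07 (edgeR adjusted p = 1.5e-06). H2afv, which encodes the second H2A.Z protein, had 34.5, 31.5, 63.9 and 67.6 CPM, a change of 1.00 ± 0.08. H2afx (ENSMUSG00000049932, chr9:44334694-44336077) encodes H2A.X, whose phosphorylated form marks DNA breaks. It had 46.5, 41.3, 111 and 124 CPM, and at 1.42 ± 0.08 (edgeR adjusted p = 1.6e-08) it had the highest log2 fold change of the variants.

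H2afx is the only variant whose transcript held the stem-loop motif, and it went opposite to the abundant clustered genes that hold it. H2afy, which encodes the large variant macroH2A1, had 103, 114, 156 and 151 CPM, a change of 0.50 ± 0.07 (edgeR adjusted p = 3.5e-05). H2afy2, which encodes macroH2A2, had 1.90, 2.69, 2.92 and 2.34 CPM, with overlapping groups and no call (0.20 ± 0.29, edgeR adjusted p = 0.59). Its exons overlap Aifm2, a gene with 5773 counts in all, over 10.7% of their length. H2afj, a variant close to canonical H2A, was the H2A variant called lower: 87.8, 82.3, 59.3 and 58.9 CPM, a change of -0.53 ± 0.07 (edgeR adjusted p = 2.8e-05).

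The H3.3 protein, which is put into chromatin outside replication, comes from H3f3a and H3f3b. H3f3b had 454, 451, 659 and 700 CPM, called higher at 0.59 ± 0.06 (edgeR adjusted p = 5.1e-06). H3f3a had 541, 496, 556 and 597 CPM. Its treated libraries were above the controls, but the nearest control and treated libraries lay closer together than the controls lay to each other. It was not called (0.15 ± 0.07, edgeR adjusted p = 0.075). It was called under 5 alternatives, at log2 fold changes from 0.17 to 0.53, among them those that left out DMSO replicate 1 (0.22) or BMS-582949 replicate 1 (0.20). Its exons overlap an antisense model, H3f3aos, and another, Gm17275, over 22.8% of their length.

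The linker variants differed. H1f0 (ENSMUSG00000096210, chr15:79028450-79030504) encodes H1.0, known to build up in differentiated cells, and had 131, 130, 54.1 and 50.5 CPM. The change was -1.32 ± 0.07 (edgeR adjusted p = 5.2e-09), near that of the clustered linker gene Hist1h1c. H1fx, which encodes H1X, had 3.47, 2.57, 3.03 and 4.04 CPM, with overlapping groups and no call (0.23 ± 0.26, edgeR adjusted p = 0.48). With a GC and length trend removed, H1fx was called higher at 0.77. Without BMS-582949 replicate 2 it was at -0.018.

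**Figure D3:**
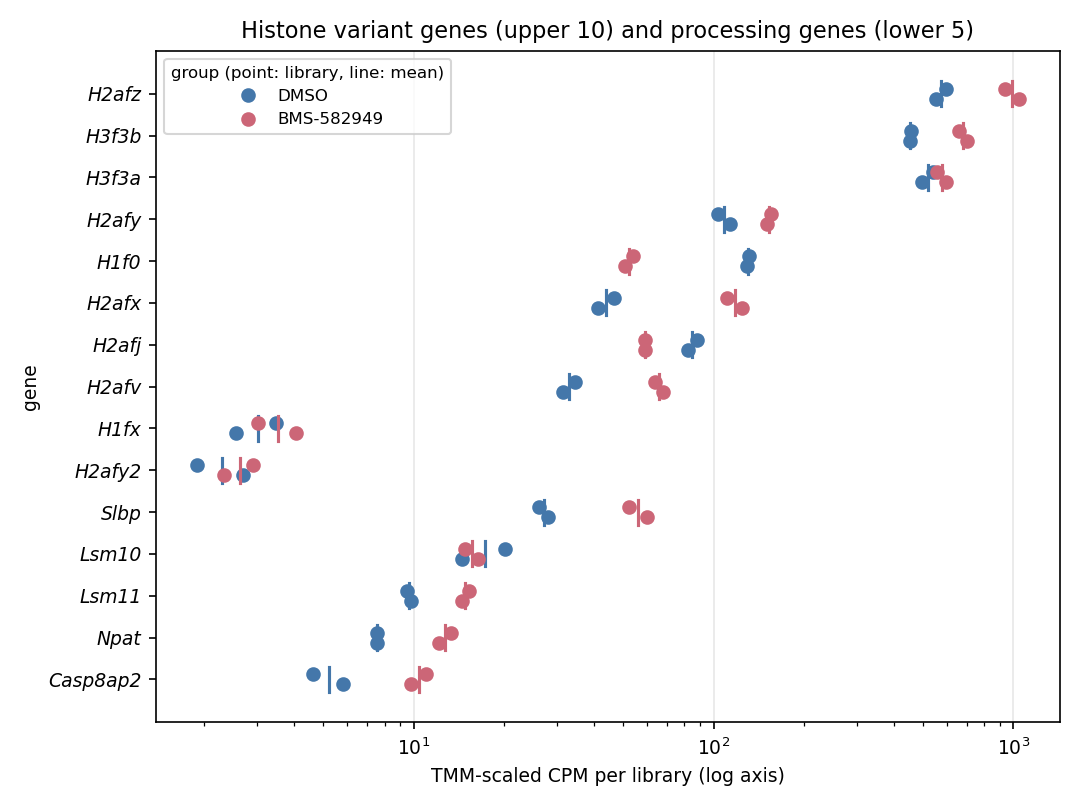
Level in CPM (log axis) of the 10 variant genes and the 5 processing genes, 1 point per library, DMSO and BMS-582949 in separate colours. H1f0 and H2afj have both treated points below the controls, H2afy2, H1fx and Lsm10 overlap, and the other genes have both treated points above.

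Ratios of counts within a library need no scaling between libraries. H3f3a to H3f3b was 1.19 and 1.10 in DMSO and 0.844 and 0.853 in BMS-582949, a log2 difference of -0.43. H1f0 to H1fx was 37.7 and 50.6 against 17.9 and 12.5, a difference of -1.55. H2afz to H2afv was 17.4 and 17.6 against 14.7 and 15.4, a difference of -0.22. None of these 3 ratios overlapped between groups, and each had a two-sided exact permutation p of 0.333, the smallest that 2 libraries against 2 allow. H2afy to H2afy2 was 54.4 and 42.2 against 53.4 and 64.4, with overlapping groups (exact permutation p = 0.667). These 4 ratios were the only ones computed, and none could pass a threshold of 0.05 in this design.

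Per kilobase of exon, the makeup of the H2A mRNAs differed between the groups. Clustered genes gave 48.5% and 49.97% of the family's CPM per kilobase with DMSO and 6.41% in both libraries with BMS-582949. H2afz gave 38.1% and 36.8% in DMSO and 70.2% and 71.0% with the compound, and H2afx gave 3.80% and 3.53% against 10.7% and 10.9%. On this measure clustered H2A ranked above H2afz in the controls and below it in the treated libraries. In CPM without division by length, the 9 kept clustered H2A genes summed to 311, 303, 40.1 and 43.7. H2afz was above them in every library, at 598, 553, 937 and 1041 CPM. The order in the controls thus rests on the annotated exon lengths, 1776 bases for H2afz against 586 for Hist2h2aa1 and 528 for Hist2h2aa2. How reads shared by Hist2h2aa1 and Hist2h2aa2 were counted also enters the clustered value and is not known. Other lengths were not tried.

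In the H3 family, clustered genes went from 16.6% and 16.2% to 2.23% and 2.55% of CPM per kilobase. H3f3b went from 41.5% and 43.3% to 57.0% and 56.5%, while H3f3a was at 42.0%, 40.5%, 40.8% and 40.9%. The makeup of the H1 family moved by a few points only: clustered H1 gave 69.3%, 69.6%, 66.1% and 67.6%, and H1f0 gave 29.4%, 29.4%, 30.9% and 28.5%. Shares within a family are not independent, and no test was run on them.

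**Figure D4:**
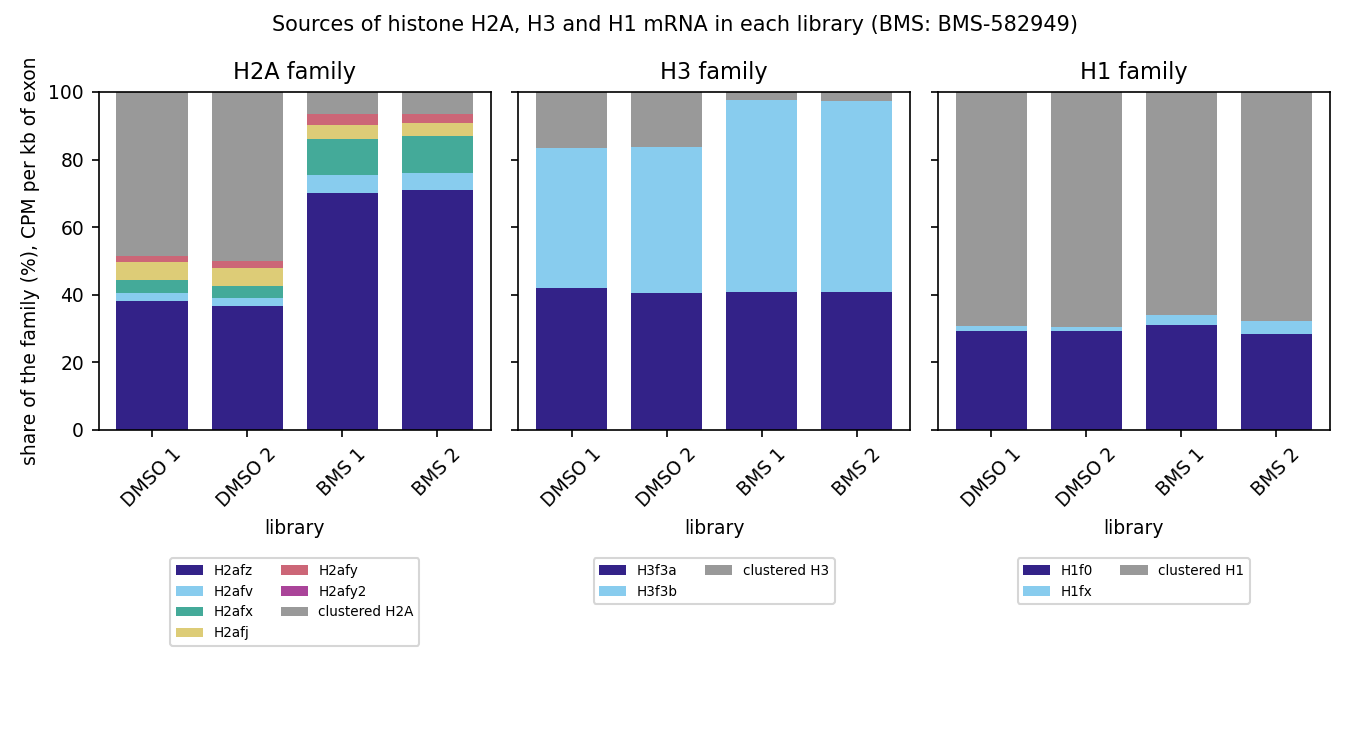
Share of each gene, or of the summed clustered genes, in its histone family, as percent of CPM per kilobase of exon, 1 stacked bar per library, for H2A, H3 and H1. The clustered H2A share is 48.5% and 49.97% in DMSO and 6.41% in both BMS-582949 libraries, whereas the H1 bars look alike.

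The processing genes did not follow the clustered genes down. Their sum was 68.1, 65.8, 107 and 113 CPM, 1.64-fold higher with BMS-582949, and by edgeR 4 of 5 were called higher and 0 lower (30.5% and 29.7% of all genes), with a median log2 fold change of 0.75. Without DMSO replicate 2, Lsm10 was called lower at -0.36. Slbp (ENSMUSG00000004642, chr5:33634952-33652574) encodes the stem-loop binding protein, and had 26.2, 28.1, 52.3 and 59.9 CPM. Both treated libraries were far above the controls, at a log2 fold change of 1.05 ± 0.10 (edgeR adjusted p = 1.1e-06).

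Npat encodes the cyclin E–CDK2 substrate that activates histone gene transcription, and had 7.53, 7.58, 13.3 and 12.2 CPM, a change of 0.75 ± 0.14 (edgeR adjusted p = 3.9e-04). Casp8ap2, which encodes the histone locus body protein FLASH, had 4.63, 5.83, 11.0 and 9.83 CPM, a change of 1.00 ± 0.17 (edgeR adjusted p = 2.5e-04). The U7 particle carries a pair of Lsm proteins of its own, and their genes differed. Lsm11 had 9.52, 9.83, 15.3 and 14.5 CPM, called higher at 0.62 ± 0.12 (edgeR adjusted p = 8.6e-04). Lsm10 had 20.2, 14.5, 14.9 and 16.5 CPM, with overlapping groups, and was not called (-0.15 ± 0.15, edgeR adjusted p = 0.42). Its sign turned without DMSO replicate 1 (0.11), which was its highest library.

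Further genes around histone supply were taken as lists. Of 26 tested factors that act on histone mRNA or its transcription, 16 were called higher and 2 lower (30.5% and 29.7% of all genes). Their median log2 fold change was 0.42 beside 0.03 for all genes. Those with the highest changes were Ccne2 (1.41 ± 0.11) and Ccne1 (0.91 ± 0.11), which encode the cyclin E proteins, and Eri1 (0.92 ± 0.08), which encodes an exonuclease that trims the histone mRNA end. Cpsf4 (-0.76 ± 0.08), of the cleavage complex for polyadenylation, and Lsm1 (-0.53 ± 0.11), of the mRNA decay ring, were called lower.

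A further list held genes of histone chaperones and of other proteins of histone deposition, Cenpa among them. Of its 32 tested genes, 25 were called higher and 2 lower (30.5% and 29.7% of all genes), with a median log2 fold change of 0.85. Anp32e, which encodes a chaperone that takes H2A.Z out of chromatin, went from 69.8 and 67.6 CPM to 206 and 195 CPM (1.55 ± 0.06, edgeR adjusted p = 1.1e-09). Oip5 (1.47 ± 0.15) and Cenpa (1.46 ± 0.07) belong to the centromere: Cenpa is the centromeric H3, and Oip5 takes part in loading it. Chaf1b went against the list. It encodes a subunit of CAF-1, the chaperone that places H3 and H4 behind the replication fork. Its level fell from 132 and 129 CPM to 53.0 and 50.7 CPM (-1.33 ± 0.07, edgeR adjusted p = 4.2e-09). The genes of the other CAF-1 subunits, Chaf1a (1.17 ± 0.10) and Rbbp4 (0.58 ± 0.06), were called higher. Nap1l4, which encodes a nucleosome assembly protein, was also called lower, with 131, 129.5, 122 and 104.5 CPM (-0.20 ± 0.08, edgeR adjusted p = 0.039).

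All 35 tested S phase replication genes were called higher (30.5% of all genes were), with a median log2 fold change of 1.36. Ccna2, the cyclin of S phase and G2, had 60.5, 65.2, 238 and 248 CPM (1.95 ± 0.07). Mcm10 (1.84 ± 0.11) and Cdc6 (1.79 ± 0.12), which act in starting replication forks, were next. In these libraries the abundant clustered histone genes were lower in the group where the replication genes, H2afx and Slbp were higher.

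Markers of other cells were less changed in sum than those of osteoclasts. Among 8 macrophage markers 5 were called higher and 2 lower (30.5% and 29.7% of all genes). Their summed level was 5777, 6017, 2995 and 3176 CPM. Most of it was the 2 called lower, Cd68 (3442, 3486, 1260 and 1455 CPM) and Csf1r (1886, 2069, 876 and 891 CPM). The 5 called higher were Adgre1, Cx3cr1, Mrc1, Itgam and Ptprc, so the sum does not describe the list. Stromal markers, of which 4 of 6 tested were called lower (29.7% of all genes), summed to 718, 662, 462 and 470 CPM. Neutrophil markers (2 of 6 tested lower, near the 29.7% of all genes, and Ly6g at 0) summed to 25.3, 24.2, 15.98 and 19.8 CPM. Erythroid, B cell and T or NK cell markers summed to less than 3 CPM in every library, and of these Cd2 (63 counts in all) was called higher. Germ cell markers, listed because testis expresses its own histone genes, were at most 0.285 CPM in sum, with Tnp1 and Prm1 at 0. The part of these cells in the histone results was not tested.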

How the data were processed

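RNA was measured in 2 DMSO and 2 BMS-582949 libraries. The authors deposited raw counts per gene, with 35331889 to 39255925 counts per library. Per the submitters' processing notes, Trimmomatic 0.36, HISAT2 2.0.4, DESeq2 1.30.1 and GRCm38 were used, with no roles given. Which counting tool, annotation and strand setting were used is not given in the sources used here, so overlapping and antisense genes, and near-identical histone copies, cannot be told apart by strand or by reads placed more than once. Symbols, coordinates, exon lengths and transcripts came from GENCODE M21 (GRCm38), for 22022 of 22036 Ensembl identifiers; 1354 further models carry no such identifier. Promoters came from RefSeq (GRCm38.p6).

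Counts were fitted in R 4.3.3 with edgeR 4.0.16 (filterByExpr with minimum count 10, TMM, glmQLFit and glmQLFTest, 13214 genes, 2 residual degrees of freedom, no covariate), and p-values were adjusted over all genes by Benjamini-Hochberg. The fit was tested on simulated data. Alternatives used DESeq2 1.42.0, limma 3.58.1, other scalings and filters, a replicate block, a GC and length trend, glmTreat and each library left out. Counts within a group differed by more than sampling noise (chi-square over its degrees of freedom 9.62 and 13.7), so no library was treated as a repeat deposit of another; this does not show that they are biological replicates. Same-numbered libraries did not deviate together (correlation -0.08 over 13214 genes). The members and lists were chosen with earlier results of these data known. Any kept member could be named. From the further lists, the 3 largest called changes in each direction among genes of at least 5 CPM were named. Chaf1a and Rbbp4 were named in addition, beside Chaf1b. A word was unique if its 50 bases occurred in no other gene model.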

Additional observations from a re-analysis of the deposited data

How the results depend on the processing

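The count of 16 clustered genes called lower was 13 to 17 under all alternatives run. The 2 called higher were 1 with at least 1 CPM in 2 libraries, with DESeq2 or at an adjusted p under 0.01, 1 to 2 with a library left out, and 3 with library size only, with a GC and length trend removed, or with block and trend. The clustered median of -1.02 was -0.96 with upper-quartile scaling, -0.64 with library size only, -0.87 without a low-count filter, -1.48 with the 1 CPM filter, -0.92 with DESeq2, -0.68 with a GC and length trend removed, -0.93 with copies summed (chosen after seeing the data) and -1.19 to -0.88 with a library left out. A block on the replicate number gave 14 clustered genes lower and 2 higher, 3923 and 3830 calls over all genes, and ended only the calls of Hist1h4k and Hist1h2be. The block with the GC and length trend gave medians of -0.69 for clustered, 0.51 for variant and 0.62 for processing genes. The variants' median of 0.36 was 0.74 with library size only, 0.51 with the trend removed and 0.41 to 0.52 with a library left out, and the processing genes' median of 0.75 was 0.81 with upper-quartile scaling, 1.14 with library size only, 0.62 with the trend removed and 0.69 to 0.79 with a library left out. Tested against a 1.5-fold change by glmTreat, 3 variants were higher and 1 lower, and 2 processing genes were higher. With library size only, 1 variant was lower, and calls over all genes were 6738 higher and 2240 lower (75.1% higher against 50.7%). The processing genes called lower were 0 to 1 with a library left out.

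Single genes that turned sign were uncalled: Lsm10 (0.23 with library size only, 0.22 with the trend removed, 0.23 with block and trend, and -0.36 to 0.11 with a library left out, the highest without DMSO replicate 1), H2afy2 (-0.033 to 0.47 with a library left out, the lowest without DMSO replicate 1) and H1fx (-0.018 to 0.46, the lowest without BMS-582949 replicate 2). Of 29 called genes followed, 19 kept call and direction under every alternative and 0 reversed. The cause of these shifts was not tested. With 1 library left in a group, it was assumed to vary like the other group. A minimum of 10 counts would have kept 60 clustered genes and one of 100 counts 23. Depth limits the genes under 1 CPM, whose SEs reached 0.84.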

Other observations

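The 26 clustered genes under the minimum of 40 counts summed to 85, 90, 143 and 100 counts in DMSO replicates 1 and 2 and BMS-582949 replicates 1 and 2, or 2.74, 2.85, 3.16 and 2.36 CPM, with the control values inside the range of the treated ones. Hist3h2ba, the H2B gene of cluster 3, had 0, 0, 13 and 3 counts in the same order. Hist4h4, the H4 gene that stands alone in its own cluster, had 2, 0, 0 and 2 counts. Hist1h2aa and Hist1h2ba, the divergent pair known for testis histones, had 0 counts in every library, which allows up to 3 counts of 148221315, or 0.0202 CPM without TMM scaling (counting error only).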
